A study of Mus musculus with 24 samples.

Results

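The 32 genes described here encode the folding machinery of the endoplasmic reticulum (ER) and the components of the unfolded protein response (UPR), read on arrays of mouse liver. They were taken by gene symbol: a probe set belonged to them where the platform annotation lists exactly 1 symbol and that symbol is one of the 32. This gave 83 of 34945 probe sets with a single symbol, and 32 of 18193 genes. Each gene is described by its probe set with the highest mean value over all arrays, and its other probe sets are given beside it.

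Proteins that leave the cell or enter its membranes pass through the Sec61 channel into the ER, where chaperones of the HSP70 and HSP90 families, lectin chaperones and protein disulfide isomerases fold them. Chains that fail to fold are drawn back into the cytosol and destroyed, a route called ER-associated degradation. When unfolded chains accumulate, the membrane sensors IRE1 (Ern1), PERK (Eif2ak3) and ATF6 start the UPR, which slows translation and switches on genes for chaperones and degradation factors. Hepatocytes secrete most plasma proteins and carry an extensive ER, and the UPR of liver is known to be tied to lipid and glucose metabolism and to feeding.

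Male C57BL6J mice were placed in 3 diet groups of 6: LF mice ate low-fat food, HF mice ate food with 45% fat, and HF+P mice ate the HF food with 5% powdered propagules, the aerial bulbils of Japanese yam. The diets lasted 4 weeks, all mice were starved for 16 h before dissection, and total RNA of each liver was read on 1 Affymetrix array, 18 arrays in all. HF was compared with LF for the effect of the fat load and HF+P with HF for the effect of the propagules. Each HF array entered both comparisons, processed a first time beside LF and a second time beside HF+P, so the 2 comparisons share the HF mice and their values are set side by side without a test between them.

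The deposited values are on a log-like scale, and arrays hardly differ in them. The group means of the 32 genes lay between 7.62 (Derl3) and 13.3 (P4hb) in the LF and HF set, all above the column median of 6.9. The sizes of the HF minus LF differences lay between 1.85e-06 and 0.00304, and those of the HF+P minus HF differences between 1.18e-07 and 0.00046. Fold changes cannot be read from such values. A mouse's value is therefore given as its position, the distance from the mean of the comparison group (LF, or HF in the second comparison) in pooled within-group SDs. The size of a difference between groups is given as the standardized difference, in pooled SDs with the small-sample correction of Hedges, with a 95% interval. Differences were tested with limma over all 45037 probe sets, two-sided, with Benjamini-Hochberg adjustment and a threshold of 0.05. With 6 mice per group the number of arrays limits the precision.

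The arrays matched their label of liver by marker genes: the hepatocyte genes Alb, Apoa1 and Ttr had mean values of 14.88, 14.75 and 14.63. Of 9 measured plasma cell and B cell markers, cells that are also rich in ER, 6 lay below the median probe set over all arrays, at 6.868, among them Jchain at 6.38 and Igk at 6.81. Sdc1 (11.34), Ighm (8.39) and Mzb1 (7.12) lay above that median. Of 8 measured markers of pancreatic acinar cells, another cell type rich in ER, 3 lay below it and Cpa1 was level with it at 6.87. Cela1 (8.79), Ctrb1 (7.47), Prss2 (7.23) and Cela3b (7.1) lay above it. In whole liver, fewer cells of a type and less RNA per cell cannot be told apart.

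Promoter sequences were read first, since several of the 32 genes share a known control element. The ER stress response element (ERSE) is bound by ATF6 and by XBP1 together with the CCAAT factor NF-Y, and reads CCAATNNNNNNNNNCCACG. It was searched on both strands of the 300 bases around the start of each gene, 250 before it and 50 after, in the RefSeq promoter table of GRCm38.p6. The table holds a window for 25 of the 32 genes. An exact ERSE stood in 39 of 32851 windows in the table (0.119%), in 9 of the 25 genes (36.0%), and in 1 of 68 other ER genes (Ero1b). The sequences that follow are shown because they are the stretch of DNA that these 9 genes have in common. Each runs 5′ to 3′ on the strand that carries the ERSE, with 10 bases on either side, and the capitals mark its CCAAT and CCACG ends.
Hspa5 (plus strand, chr2:34772015-34772053, 47 to 65 bases before the start): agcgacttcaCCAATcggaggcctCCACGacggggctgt
Calr (plus strand, opposite to the gene, chr8:84847065-84847103, 144 to 162 bases before the start): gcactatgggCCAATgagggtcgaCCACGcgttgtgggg
Canx (minus strand, chr11:50325790-50325828, 127 to 145 bases before the start): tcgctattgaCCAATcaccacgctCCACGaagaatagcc
Hsp90b1, far copy (minus strand, chr10:86705628-86705666, 194 to 212 bases before the start): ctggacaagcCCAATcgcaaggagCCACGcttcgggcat
Hsp90b1, near copy (plus strand, opposite to the gene, chr10:86705523-86705561, 89 to 107 bases before the start): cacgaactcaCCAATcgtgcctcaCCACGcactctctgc
Pdia6 (plus strand, chr12:17266481-17266519, 80 to 98 bases before the start): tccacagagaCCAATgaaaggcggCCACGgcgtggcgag
Dnajc3 (plus strand, chr14:118937817-118937855, 87 to 105 bases before the start): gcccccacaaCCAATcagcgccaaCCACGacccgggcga
Creld2 (minus strand, opposite to the gene, chr15:88819510-88819548, 108 to 126 bases before the start): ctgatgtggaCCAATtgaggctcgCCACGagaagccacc
Derl3 (minus strand, opposite to the gene, chr10:75893232-75893270, 138 to 156 bases before the start): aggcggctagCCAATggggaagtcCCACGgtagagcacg
Syvn1 (plus strand, chr19:6046522-6046560, 26 to 44 bases before the start): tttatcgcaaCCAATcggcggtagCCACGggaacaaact

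Hspa5 encodes BiP, the HSP70 chaperone of the ER and the textbook target of this element. The 250 bases before its start are shown with the ERSE ends in capitals, on the plus strand at chr2:34771840-34772089 of GRCm38.p6.
Hspa5 upstream: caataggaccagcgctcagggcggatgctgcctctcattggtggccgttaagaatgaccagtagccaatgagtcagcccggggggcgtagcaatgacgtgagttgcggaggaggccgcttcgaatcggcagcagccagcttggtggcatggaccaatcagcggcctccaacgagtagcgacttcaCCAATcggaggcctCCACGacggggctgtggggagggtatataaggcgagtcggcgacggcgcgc

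A related element, ERSE-II, reads ATTGGNCCACG and stood in 12 of the 32851 windows (0.0365%), among them those of Herpud1 and Dnajb11. The Herpud1 copy is shown as the only ERSE-II that lies before the start among the 25 genes with a window, 42 to 52 bases from it, on the plus strand at chr8:94386367-94386397, with both ends in capitals.
Herpud1: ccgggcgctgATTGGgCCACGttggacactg
The core of the UPR element, TGACGTGG, stood in 222 windows (0.676%) and in 0 of the 25. A match is a description of letters in a window and no measurement of binding.

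Compared with LF, the mean of 27 of the 32 genes was higher in HF, against 50.8% of all probe sets, but 15 of 32 were higher after subtraction of column medians (2.87% of all probe sets) and 14 of 24 after quantile normalization (14.6%). The median standardized difference was 0.91, with a range from -1.03 (P4hb) to 2.32 (Derl2), against 0.01 over all probe sets; it was -0.25 after subtraction of column medians and 0.23 after quantile normalization. No gene of the 32 passed the limma threshold after Benjamini-Hochberg adjustment, in a comparison with 302 called probe sets in all (0.671%), 121 of them higher in HF (0.269%). After subtraction of column medians limma called 42369 of the 45037 probe sets, and 7305 were called after quantile normalization. A low adjusted p after subtraction thus does not set a gene apart. At an unadjusted p below 0.05, 9 of the 32 were higher and 0 lower, against 5.69% and 7.25% of all probe sets. Over all 83 probe sets, 67 were higher in HF, with a median of 0.72. The column medians of the HF and LF arrays differed by 6.45e-05, which is more than the group difference of 16 of the 32 genes.

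**Figure D1:**
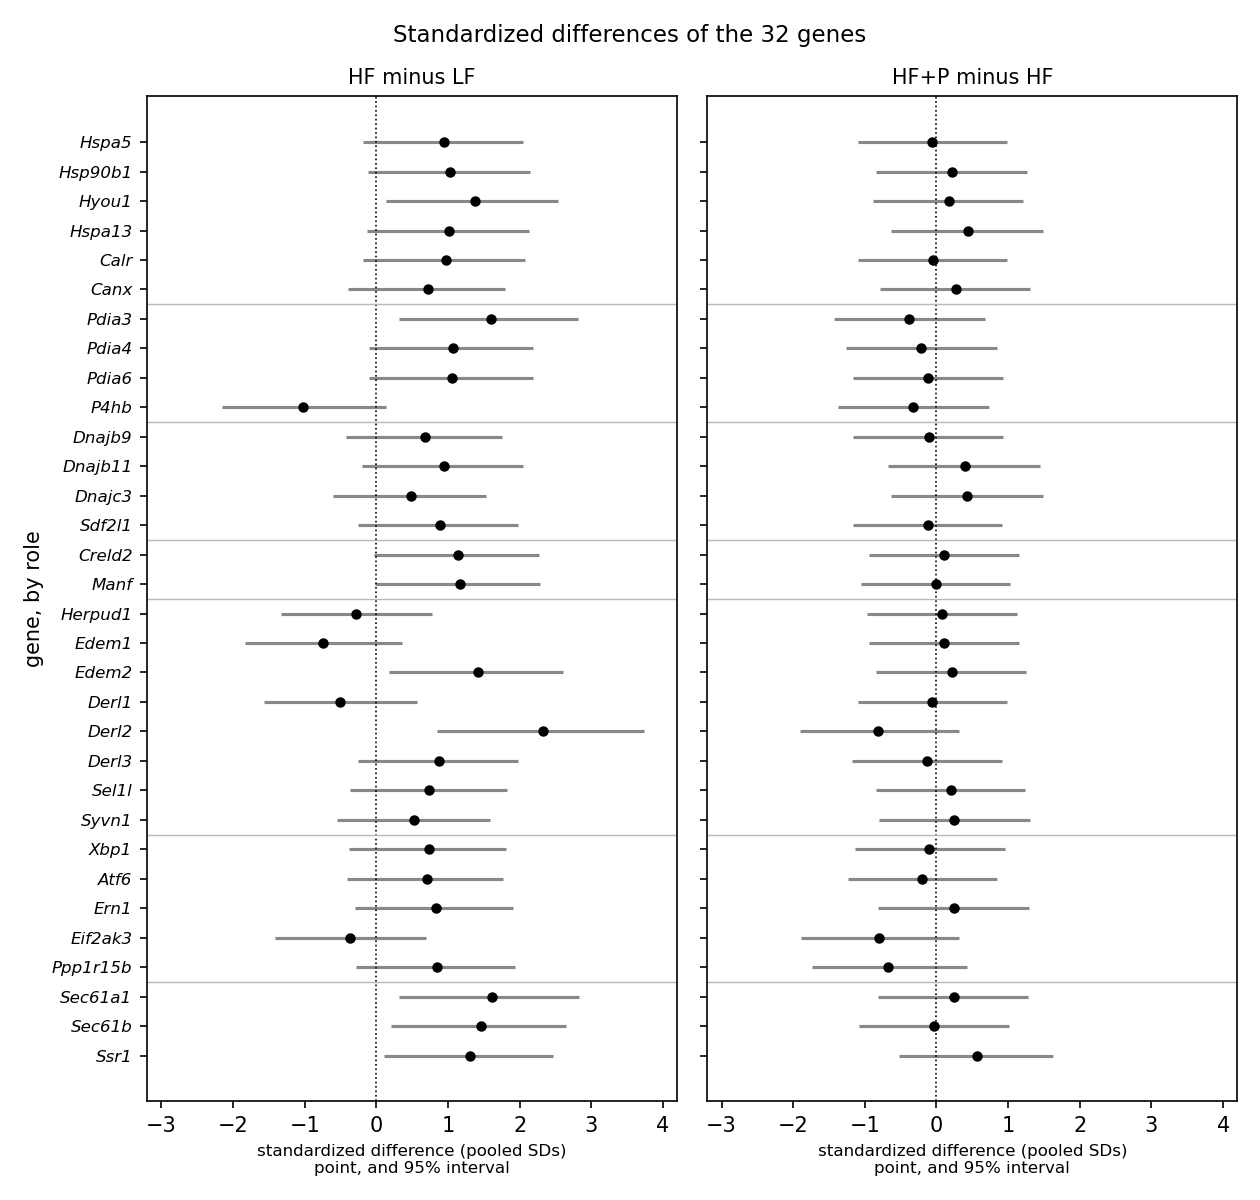
Standardized difference of each of the 32 genes (points, in pooled SDs) with its 95% interval (lines), for HF minus LF on the left and HF+P minus HF on the right, 6 mice per group; grey lines separate the roles. On the left 27 of the 32 points lie above 0 in the deposited values (15 of 32 after subtraction of column medians, 14 of 24 after quantile normalization), on the right 15 of the 32 (20 of 32 and 14 of 22). Of all probe sets, 50.8% (2.87% and 14.6%) were higher on the left and 49.3% (86.2% and 54.4%) on the right.

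The 6 chaperones of the HSP70, HSP90 and lectin families all had a higher mean in HF, with standardized differences from 0.72 (Canx) to 1.37 (Hyou1) and a median of 0.99, but 3 of 6 after subtraction of column medians and 1 of 3 testable genes after quantile normalization. None was called, and the lowest adjusted p was 0.282 (limma, Benjamini-Hochberg), for Hyou1, the large HSP70 relative that recharges BiP with nucleotide.

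Hspa5 positions in LF ran from -1.13 to 0.81 with a median of 0.1, and those in HF from -0.08 to 3.06 with a median of 0.53. HF mice 2 and 1 lay above every LF mouse, at 3.06 and 1.97, and the other 4 HF mice lay within the LF range. The standardized difference was 0.95 (95% interval -0.19 to 2.05, limma adjusted p = 0.484), and all 3 Hspa5 probe sets had a higher mean in HF. Hsp90b1, the HSP90 chaperone of the ER (GRP94), spanned -0.62 to 0.9 in LF (median -0.04) and -0.89 to 2.5 in HF (median 1.19). In HF, 4 of 6 mice lay above all LF mice, with mice 2 and 8 highest at 2.5 and 2.4, and mouse 5 lay below all LF mice. Its standardized difference was 1.03 (-0.12 to 2.15, limma adjusted p = 0.438), 1.84 without HF mouse 5 and -0.89 after subtraction of column medians.

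Calreticulin (Calr), the soluble lectin chaperone that binds calcium, also had mouse 2 highest and mouse 5 lowest in HF. Its LF positions ran from -0.67 to 0.42 (median 0.05) and its HF positions from -1.29 to 2.93 (median 1.22). In HF, 5 of 6 mice lay above every LF mouse and mouse 5 lay below every LF mouse. The standardized difference was 0.97 (-0.18 to 2.07, limma adjusted p = 0.475), and 2.24 without HF mouse 5 (adjusted p = 0.0949, within 0.0949 to 0.646 over 19 other settings). Its membrane-bound partner calnexin (Canx) had 0.72 and a higher mean at all 3 probe sets, with 0.46 without HF mouse 2 and 1.09 without HF mouse 5. After subtraction of column medians it had -2.14 (adjusted p = 0.00173, within 0.00173 to 0.813 over the other settings). In that setting 42369 of 45037 probe sets were called. Hspa13, a small HSP70 relative of microsomes, ranged from -0.84 to 0.92 in LF (median 0.11) and from 0.01 to 3.28 in HF (median 0.81), with mice 2 and 1 above all LF mice. All 4 of its probe sets were higher, and the standardized difference of 1.02 (-0.13 to 2.13, limma adjusted p = 0.446) became -1.72 after quantile normalization (adjusted p = 0.0416, within 0.0416 to 0.929 over the other settings).

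**Figure D2:**
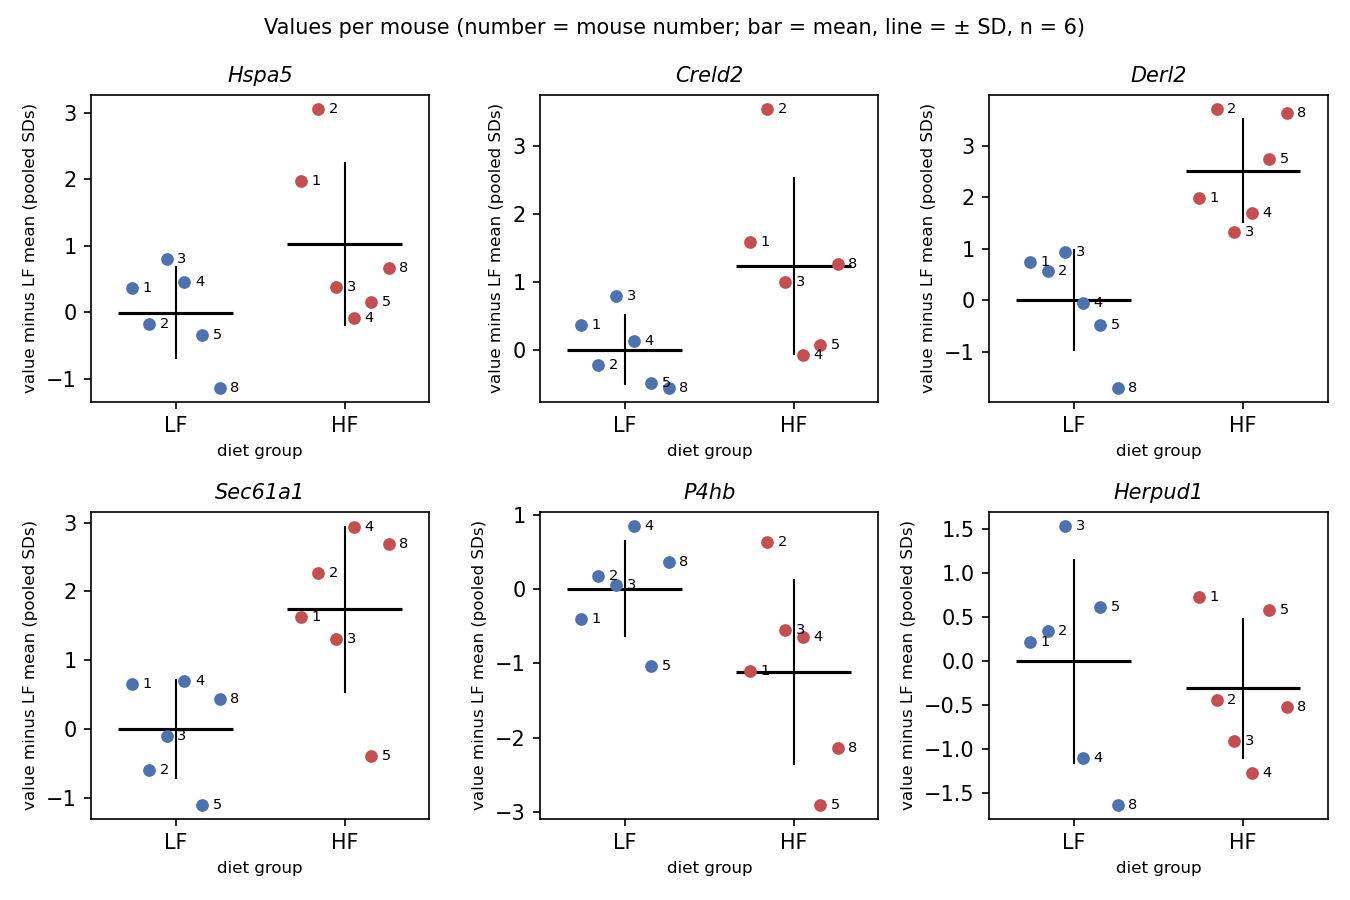
Position of each mouse (points, numbered by mouse) relative to the LF mean, in pooled within-group SDs, for 6 of the 32 genes in LF and HF; horizontal bars are group means and vertical lines ± SD, n = 6 per group. HF mice 2 and 1 are highest for Hspa5 and Creld2, the groups of Derl2 do not overlap, HF mouse 5 stands below the other HF mice for Sec61a1 and P4hb, and P4hb and Herpud1 have a lower mean in HF; after subtraction of column medians the means of Derl2 and Sec61a1 are lower in HF.

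Protein disulfide isomerases form and reshuffle the disulfide bonds of new chains. Of the 4 measured, Pdia3, Pdia4 and Pdia6 had a higher mean in HF and P4hb a lower one, also after subtraction of column medians; of the 2 testable after quantile normalization, Pdia6 was higher and Pdia4 had a standardized difference of 0. Pdia3 works with calnexin and calreticulin on glycoproteins, and its positions ran from -1.43 to 0.81 in LF (median 0.28) and from 0.14 to 3.6 in HF (median 1.7). In HF, 5 of 6 mice lay above all LF mice, and mouse 5 lay within them. Its standardized difference was 1.6 (0.32 to 2.82, limma adjusted p = 0.202). Pdia4 and Pdia6 had 1.07 and 1.06. Without HF mouse 5 Pdia6 had 1.85, and its second probe set had -0.11. P4hb, the classical isomerase and a subunit of prolyl hydroxylase, ran the other way: from -1.04 to 0.85 in LF (median 0.12) and from -2.9 to 0.64 in HF (median -0.88). HF mice 5, 8 and 1 lay below all LF mice. The standardized difference of its single probe set was -1.03 (-2.15 to 0.13, limma adjusted p = 0.46), and -1.61 without HF mouse 2, for a difference of -2.29e-06 in deposited values, far below the shift of the column medians. After subtraction of column medians it was -2.79 (limma adjusted p = 0.000495, within 0.000495 to 0.577 over the other settings). That setting called 42369 of 45037 probe sets.

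The J-domain co-chaperones hand substrates to BiP and set its ATP cycle, and Sdf2l1 is a partner of Dnajb11. All 4 had a higher mean in HF, with 0.94 for Dnajb11, 0.89 for Sdf2l1, 0.68 for Dnajb9 and 0.48 for Dnajc3, and 3 of 4 did under either other scaling. Single mice moved Dnajb9 (0.45 without LF mouse 8, 1.45 without HF mouse 8), Sdf2l1 (1.39 without HF mouse 5) and Dnajc3 (from 0.23 without HF mouse 2 or 8 to 0.8 without LF mouse 3). Dnajb11 positions ran from -0.97 to 0.96 in LF (median -0.08) and from -0.6 to 2.76 in HF (median 0.93). HF mice 2, 8 and 1 lay above the LF mice and the rest within their range (limma adjusted p = 0.487). For Dnajc3 (P58IPK, which also restrains PERK), LF lay from -0.88 to 1.42 (median -0.17) and HF from -0.8 to 1.94 (median 0.06). HF mice 2 and 8 tied at 1.94 above LF, and the other 4 HF mice lay inside the LF range (limma adjusted p = 0.77). All 5 Dnajc3 probe sets had a higher mean. Creld2 and Manf are small proteins that the ER releases under stress. They had 1.14 and 1.16 (limma adjusted p = 0.386 and 0.376), and both were higher under every scaling tried, with 1.11 and 1.12 after subtraction of column medians and 1.01 and 1.08 after quantile normalization. So were Hyou1, Pdia6, Dnajb9, Sdf2l1, Derl3 and Syvn1. Creld2 spanned -0.56 to 0.79 in LF and -0.08 to 3.55 in HF, and Manf -1.19 to 0.85 and -0.09 to 3.15, with HF mouse 2 highest for both.

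**Figure D3:**
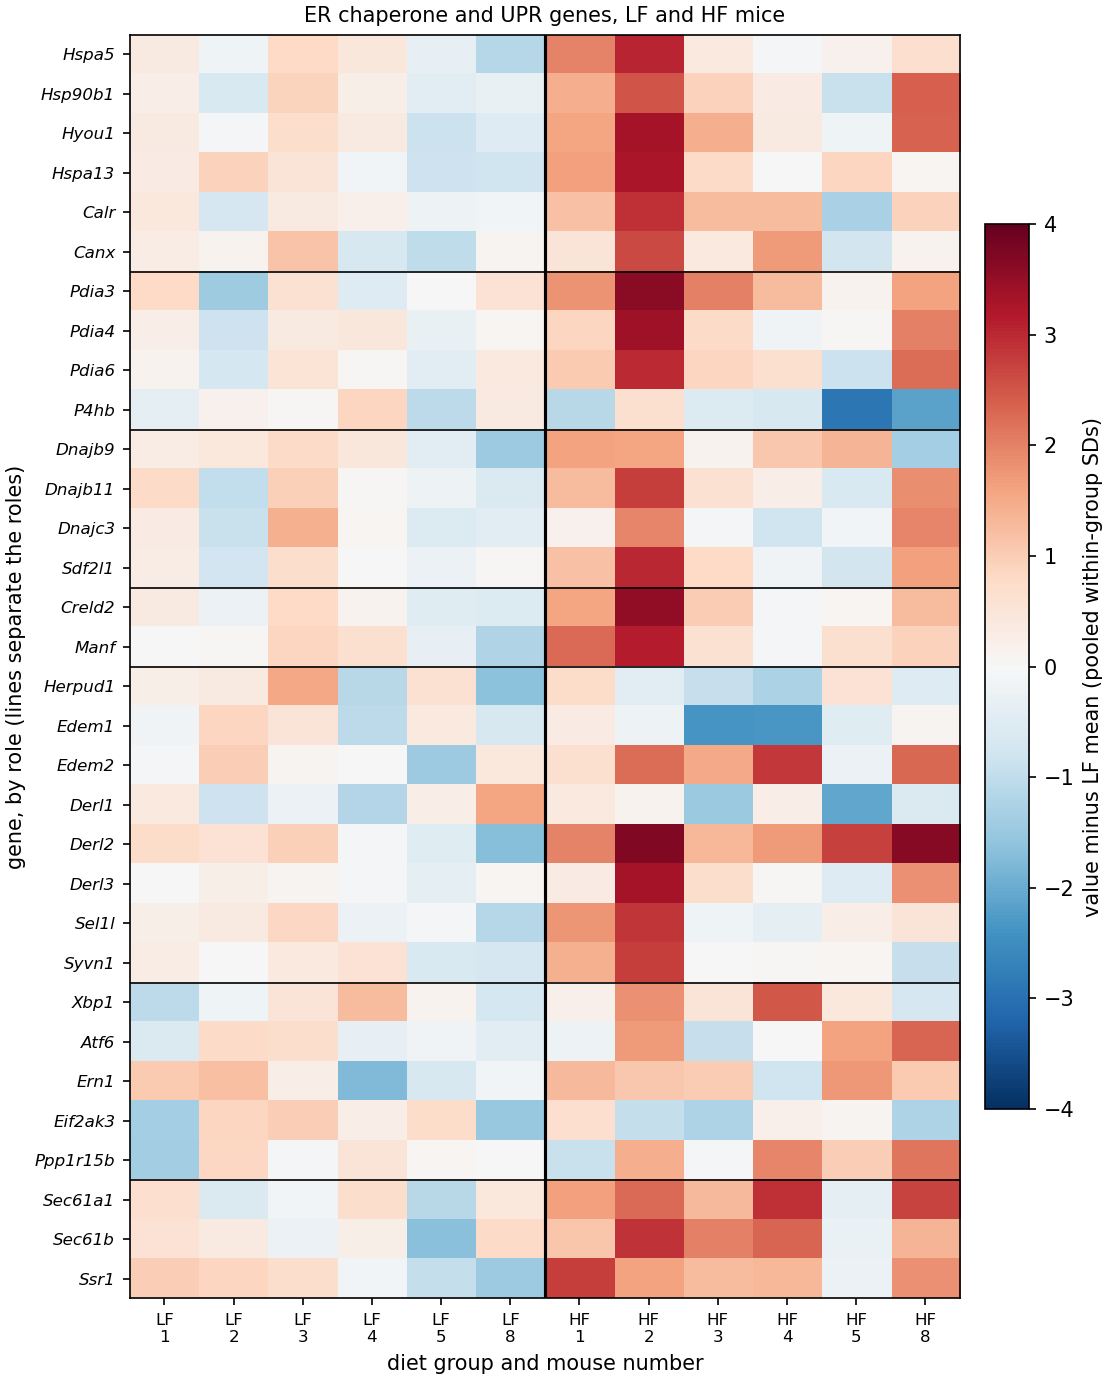
Position of each LF and HF mouse (columns) for the 32 genes (rows, by role), as the deposited value minus the LF mean in pooled within-group SDs, red above and blue below. The column of HF mouse 2 is the reddest, with a median position of 2.69, and that of HF mouse 5 the palest of the HF mice, with a median of -0.02.

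Genes of ER-associated degradation were split. Of 8, 5 had a higher mean in HF (Edem2, Derl2, Derl3, Sel1l, Syvn1) and 3 a lower one (Herpud1, Edem1, Derl1); 2 of 8 were higher after subtraction of column medians and 5 of 7 after quantile normalization. Derl2, a derlin of the channel that returns misfolded chains to the cytosol, was the only one of the 32 genes whose groups did not overlap, against 0.644% of all probe sets higher without overlap. Its LF positions ran from -1.7 to 0.94 (median 0.26) and its HF positions from 1.32 to 3.71 (median 2.36), with mouse 2 highest and mouse 3 lowest in HF. The standardized difference was 2.32 (0.84 to 3.74, limma adjusted p = 0.074; exact permutation p = 0.00216, unadjusted, the smallest that 924 assignments can give). It turned to -1.69 after subtraction of column medians (adjusted p = 0.00794, with 42369 of 45037 probe sets called). After quantile normalization it had -1.31 (adjusted p = 0.098), and it passed at 2.32 when dim probe sets were left out (adjusted p = 0.0455). Over 19 other settings its adjusted p lay between 0.00794 and 0.203. The second Derl2 probe set was higher as well.

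Edem1, a mannosidase-like protein that marks glycoproteins for disposal, ran from -1.05 to 0.86 in LF (median 0.14) and from -2.35 to 0.33 in HF (median -0.34). HF mice 3 and 4 stood below all LF mice and the other 4 lay among them. The standardized difference was -0.75 (-1.83 to 0.36, limma adjusted p = 0.613), and its second probe set had 0.4. After subtraction of column medians Edem1 had -2.95 (limma adjusted p = 0.000495, within 0.000495 to 0.83 over the other settings), and after quantile normalization 0.17. Subtraction called 42369 of 45037 probe sets, so a low adjusted p in that setting does not single out a gene. Derl1, another derlin, ran from -1.17 to 1.58 in LF (median 0.02) and from -2.07 to 0.38 in HF (median -0.23), with HF mice 5 and 3 below the LF mice. Its standardized difference was -0.51 (limma adjusted p = 0.747), or -0.25 without LF mouse 8 and -0.26 without HF mouse 5, and all 4 of its probe sets had a lower mean. After subtraction of column medians Derl1 had -2.98 (limma adjusted p = 0.000495, within 0.000495 to 0.905 over the other settings), and after quantile normalization 0.3. Herpud1, a scaffold of the same ligase complex and an early UPR target, had -0.28 and a lower mean at both probe sets, with the 2 groups mixed; it ran from -0.66 without LF mouse 8 to 0 without LF mouse 3. Edem2 had 1.42, but -1.25 after subtraction of column medians (adjusted p = 0.0323, within 0.0323 to 0.427 over the other settings), -0.64 after quantile normalization and -0.42 at its second probe set. Sel1l had 0.74, but -1.03 after subtraction of column medians, and 3 of its 5 probe sets had a higher mean. Derl3 had 0.88. Syvn1, the HRD1 ubiquitin ligase that Sel1l holds, had 0.53. Without HF mouse 2, Sel1l had 0.49 and Syvn1 0.18, and without HF mouse 8 Syvn1 had 0.88.

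The sensors and their factors had standardized differences from -0.37 (Eif2ak3) to 0.85 (Ppp1r15b), with a median of 0.73. Xbp1, Atf6, Ern1 and Ppp1r15b had a higher mean in HF and Eif2ak3 a lower one, while 1 of these 5 (Xbp1) was higher after subtraction of column medians and 1 of 5 (Eif2ak3) after quantile normalization. Xbp1 encodes the transcription factor whose mRNA IRE1 splices; the arrays do not tell its spliced form apart. Its LF positions ran from -1.05 to 1.25 (median -0.02) and its HF positions from -0.66 to 2.47 (median 0.46), with HF mice 4 and 2 above LF. The standardized difference was 0.73 (-0.38 to 1.81, limma adjusted p = 0.612), and all 4 probe sets had a higher mean.

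Atf6, the sensor that is cut in the Golgi into a transcription factor, ran from -0.58 to 0.76 in LF (median -0.23) and from -0.91 to 2.32 in HF (median 0.81). HF mice 8, 2 and 5 lay above the LF mice, and HF mouse 3 below them (standardized difference 0.7, limma adjusted p = 0.633; 1.16 without HF mouse 3, 0.46 without HF mouse 8). Ern1 ran from -1.78 to 1.19 in LF (median 0.09) and from -0.8 to 1.72 in HF (median 1.06). Of the HF mice, 5 lay between 1.02 and 1.72 and mouse 4 stood apart at -0.8, but only mice 5 and 1 exceeded all LF mice (0.83, limma adjusted p = 0.555; 1.32 without HF mouse 4). All 5 Ern1 probe sets and all 3 Atf6 probe sets had a higher mean. For Eif2ak3, the kinase that slows translation, LF lay from -1.52 to 0.99 (median 0.51) and HF from -1.25 to 0.67 (median -0.42), within the LF range (-0.37, limma adjusted p = 0.833; from -0.73 without LF mouse 8 to -0.19 without LF mouse 3). Ppp1r15b, a phosphatase subunit that undoes that kinase's mark, lay from -1.38 to 0.84 in LF (median 0.03) and from -0.9 to 2.14 in HF (median 1.21). HF mice 8, 4, 2 and 5 were above all LF mice and HF mouse 1 was low (0.85, limma adjusted p = 0.541; 1.44 without HF mouse 1).

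The 3 translocon genes had standardized differences of 1.61 (Sec61a1), 1.46 (Sec61b) and 1.31 (Ssr1), with unadjusted exact permutation p of 0.0195, 0.0238 and 0.0368. Genes of other roles also had low values in that test, at 0.0108 for Pdia3 and 0.0325 for Hyou1 and Edem2. After subtraction of column medians 1 of 3 (Sec61b) was higher, and Sec61a1, the only one testable after quantile normalization, had 0.33. Sec61a1 forms the channel itself. Its LF positions ran from -1.1 to 0.7 (median 0.17) and its HF positions from -0.39 to 2.93 (median 1.95). In HF, 5 of 6 mice exceeded all LF mice, and mouse 5 lay within them (0.32 to 2.83, limma adjusted p = 0.2). Without HF mouse 5 its standardized difference was 2.78 (adjusted p = 0.0539, within 0.00857 to 0.663 over the other settings, the lowest with column medians subtracted and the sign turned). All 6 Sec61a1 probe sets had a higher mean, and one of them reached 2.32 (limma adjusted p = 0.0732).

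Sec61b, a small subunit of the channel, ran from -1.68 to 0.75 in LF (median 0.29) and from -0.26 to 2.88 in HF (median 1.69), and Ssr1, of the translocon-associated complex, from -1.46 to 0.98 (median 0.28) and from -0.24 to 2.75 (median 1.46). In both, 5 of 6 HF mice lay above all LF mice and mouse 5 fell within the LF range (limma adjusted p = 0.249 and 0.317). Of the 4 Ssr1 probe sets 2 had a higher mean, so its probe sets disagree.

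Single mice stood out across the 32 genes. HF mouse 2 had the highest value of its group for 19 of the 32 genes (44 of 83 probe sets), against 14.4% of all probe sets. It was highest for 20 of 32 after subtraction of column medians (15.7% of all probe sets) and for 13 of 24 after quantile normalization (13.1%). HF mouse 5 had the lowest for 15 of 32, against 16.5% of all probe sets. After subtraction of column medians it was lowest for 9 of 32 (1.09% of all probe sets) and mouse 1 for 13 (93%). After quantile normalization it was lowest for 1 of 24 (2.34%) and mouse 3 for 11 (38.5%). In LF, mouse 3 was highest for 15 of 32 genes (15.6% of all probe sets) and lowest for 0. It was highest for 15 of 32 after subtraction of column medians (11.5%) and for 5 of 24 after quantile normalization (6.73%). The median position over the 32 genes was 2.69 in HF mouse 2, 1.31 in mouse 8, 1.17 in mouse 1, 0.65 in mouse 3, 0.23 in mouse 4 and -0.02 in mouse 5; in LF it lay between -0.42 and 0.64. HF mice were more spread than LF mice for 28 of the 32 genes (54.3% of all probe sets), with a median ratio of the SDs of 1.65 against 1.05 over all probe sets. Without HF mouse 2 the median standardized difference was 0.74 and 27 of 32 genes still had a higher mean, and without HF mouse 5 it was 1.16; 0 of 32 were called without any one of the 12 mice.

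Both processings read the same 6 HF arrays. In the deposited values the mouse with the highest value was the same in both for 27 of the 32 genes (75% of all probe sets), and the mouse with the lowest for 29 (74.3%). After subtraction of column medians the processings differed. HF mouse 2 was lowest for 0 of 32 in the first (0.913% of all probe sets) and for 7 in the second (81.7%). HF mouse 1 was lowest for 13 in the first (93%) and for 1 in the second (1.77%). Genes with an ERSE in the window had HF mouse 2 as the highest mouse in 8 of 9 cases, at a median position of 2.93. Of the 16 genes with a window but no ERSE 8 did, at a median of 2.02, and of the 7 without a window 3 did. Between the diets, the 9 ERSE genes had a median standardized difference of 0.95 and the 16 others 0.86. Over the hepatocyte markers HF mouse 2 had the lowest median position of the 12 mice, at -1.62, and again in the second processing, at -1.01. For markers of Kupffer cells, lymphocytes, and plasma cells and B cells it had 0.03, -0.39 and 0.29, where HF mouse 3 was highest of the HF mice at 2.56, 2.21 and 1.6. The part of these markers in the values of mouse 2 was not tested.

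**Figure D4:**
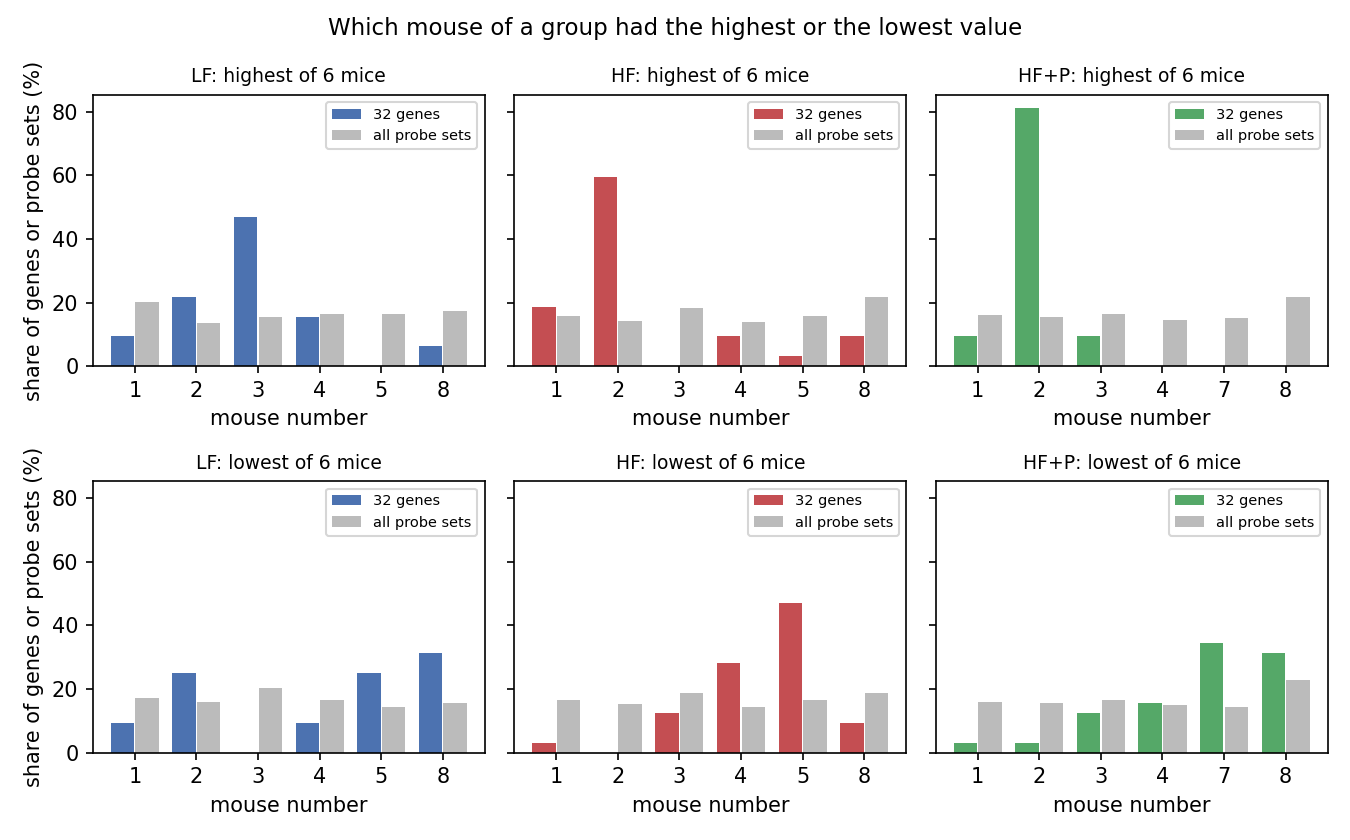
Share of the 32 genes (coloured bars) and of all probe sets (grey bars), in percent, for which each mouse had the highest (top) or the lowest (bottom) value of its group of 6. Mouse 2 holds the highest value for 19 of 32 genes in HF and 26 of 32 in HF+P, where the grey bars stand at 14.4% and 15.6%.

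Markers of cell types were read beside the 32 genes. Of all probe sets, 50.8% had a higher mean in HF, against 2.87% after subtraction of column medians and 14.6% after quantile normalization. The share with a higher mean thus depended on the scaling, and the marker counts stand beside these shares. Subtraction lowered every HF minus LF difference by the shift of the column medians, 6.45e-05. Of the 6 hepatocyte markers 5 had a lower mean in HF (median standardized difference -0.68), 6 of 6 after subtraction of column medians, as did the only one testable after quantile normalization. All 7 Kupffer cell and macrophage markers had a higher mean in HF (median standardized difference 0.63), also after subtraction of column medians, and 5 of 7 after quantile normalization. In the deposited values all 6 lymphocyte markers (median 0.69), 7 of 9 plasma cell and B cell markers (0.62) and 6 of 8 acinar markers (0.4) were higher, against 1 of 6, 0 of 9 and 1 of 8 after subtraction of column medians and 1 of 6, 0 of 7 and 2 of 8 after quantile normalization. Summed over the list, hepatocyte markers lay between 82.5493 and 82.55571 in LF and between 82.54732 and 82.55339 in HF, Kupffer cell markers lay between 63.58895 and 63.70412 in LF and between 63.58924 and 63.67398 in HF, plasma cell and B cell markers between 65.89821 and 65.89825 and between 65.89814 and 65.89825, and lymphocyte markers between 44.11968 and 44.12269 and between 44.12022 and 44.12458. Acinar markers summed to 56.73933 to 56.73949 in LF and 56.73956 to 56.7398 in HF, and these sums did not overlap. Of these 8 markers only Cela1 had groups without overlap (2.29, limma adjusted p = 0.0761), against 0.644% of all probe sets higher without overlap. Prss2 was lowest at -0.85. The median positions of the acinar list overlapped, from -0.46 to 0.75 in LF and from -0.64 to 1.23 in HF. Only Sdc1, which hepatocytes express too, passed limma among these markers, with a standardized difference of -5.43 (adjusted p = 0.00138). Their part in the values of the 32 genes was not tested.

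With propagules added to the high-fat diet the 32 genes showed no shared direction. In HF+P, 15 of 32 had a higher mean than in HF (49.3% of all probe sets). After subtraction of column medians 20 of 32 did (86.2% of all probe sets), and after quantile normalization 14 of 22 (54.4%). The median standardized difference was -0.02 and the range -0.81 (Derl2) to 0.56 (Ssr1). By limma with Benjamini-Hochberg adjustment 0 of 32 were called, and 0 had an unadjusted p below 0.05, against 3.74% of all probe sets higher and 3.2% lower at that limit. In this comparison 1 probe set was called in all (0.00222%), higher in HF+P (0.00222%), and none of the 32 genes was higher without overlap (0.162% of all probe sets). The 95% intervals show what 6 mice per group leave possible: that of Hspa5 ran from -1.1 to 0.99 around -0.06, so a change of about 1 pooled SD either way lies within it.

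Chaperones had a median of 0.19, with 4 of 6 higher in the deposited values and after subtraction of column medians and 3 of 4 after quantile normalization. Hspa5 in HF of this processing ran from -1.08 to 2.02 (median -0.52) and in HF+P from -0.63 to 1.35 (median -0.32), with mouse 2 highest in each group and the rest mixed (limma adjusted p = 0.992). Hsp90b1 ran from -1.61 to 1.16 (median 0.01) and from -0.83 to 1.76 (median 0.09), again with mouse 2 of HF+P on top (0.22, limma adjusted p = 0.961). Calr had -0.05, between -1.78 and 1.44 in HF and between -1.11 and 1.48 in HF+P. Hspa13 had 0.44, from -0.81 to 1.52 (median -0.27) in HF and from -0.66 to 2.55 (median 0.27) in HF+P, where mouse 2 alone exceeded the HF mice (limma adjusted p = 0.896).

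All 4 disulfide isomerases had a lower mean in HF+P, from -0.12 (Pdia6) to -0.38 (Pdia3), but P4hb had 0.53 after subtraction of column medians. Pdia3 ran from -1.64 to 1.74 (median -0.01) in HF and from -1.6 to 0.82 (median -0.43) in HF+P, with fully mixed mice (limma adjusted p = 0.916). Among the co-chaperones, Dnajc3 had 0.43 and Dnajb11 0.4 in the deposited values, with mouse 2 of HF+P highest for both, at 1.49 and 2.15, while Sdf2l1 had -0.12 and Dnajb9 -0.11. After quantile normalization Dnajc3 had -0.53. Creld2 and Manf had 0.1 and -0.01.

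Of the degradation genes, Derl2 had the lowest standardized difference of the 32, at -0.81 (-1.9 to 0.31, limma adjusted p = 0.808), and 0.39 after subtraction of column medians. Its HF positions ran from -0.99 to 1.44 (median -0.43) and its HF+P positions from -1.87 to 0.73 (median -1.04), with HF+P mice 8, 3 and 1 below all HF mice. The other 7 lay between -0.13 and 0.25. Among the sensors, Eif2ak3 had -0.8 (-1.89 to 0.32, limma adjusted p = 0.806) and 0.14 after subtraction of column medians. It ran from -2.09 to 0.91 (median 0.44) in HF and from -2.16 to -0.08 (median -0.7) in HF+P, where all 6 mice lay below the HF mean and 1 below all HF mice. Ppp1r15b had -0.67 (limma adjusted p = 0.84), from -1.71 to 1.27 (median 0.24) in HF and from -1.78 to 0.91 (median -0.79) in HF+P; mouse 2 of HF+P, high for most of the genes, was the lowest here. Xbp1, Atf6 and Ern1 had -0.1, -0.2 and 0.25, and Atf6 had 0.48 after quantile normalization. Ssr1 had the highest value of the 32, at 0.56 (-0.52 to 1.62, limma adjusted p = 0.864), from -0.62 to 1.38 (median -0.36) in HF and from -0.77 to 2.28 (median 0.29) in HF+P, with HF+P mice 2 and 8 above the HF mice. Sec61a1 and Sec61b had 0.24 and -0.04.

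**Figure D5:**
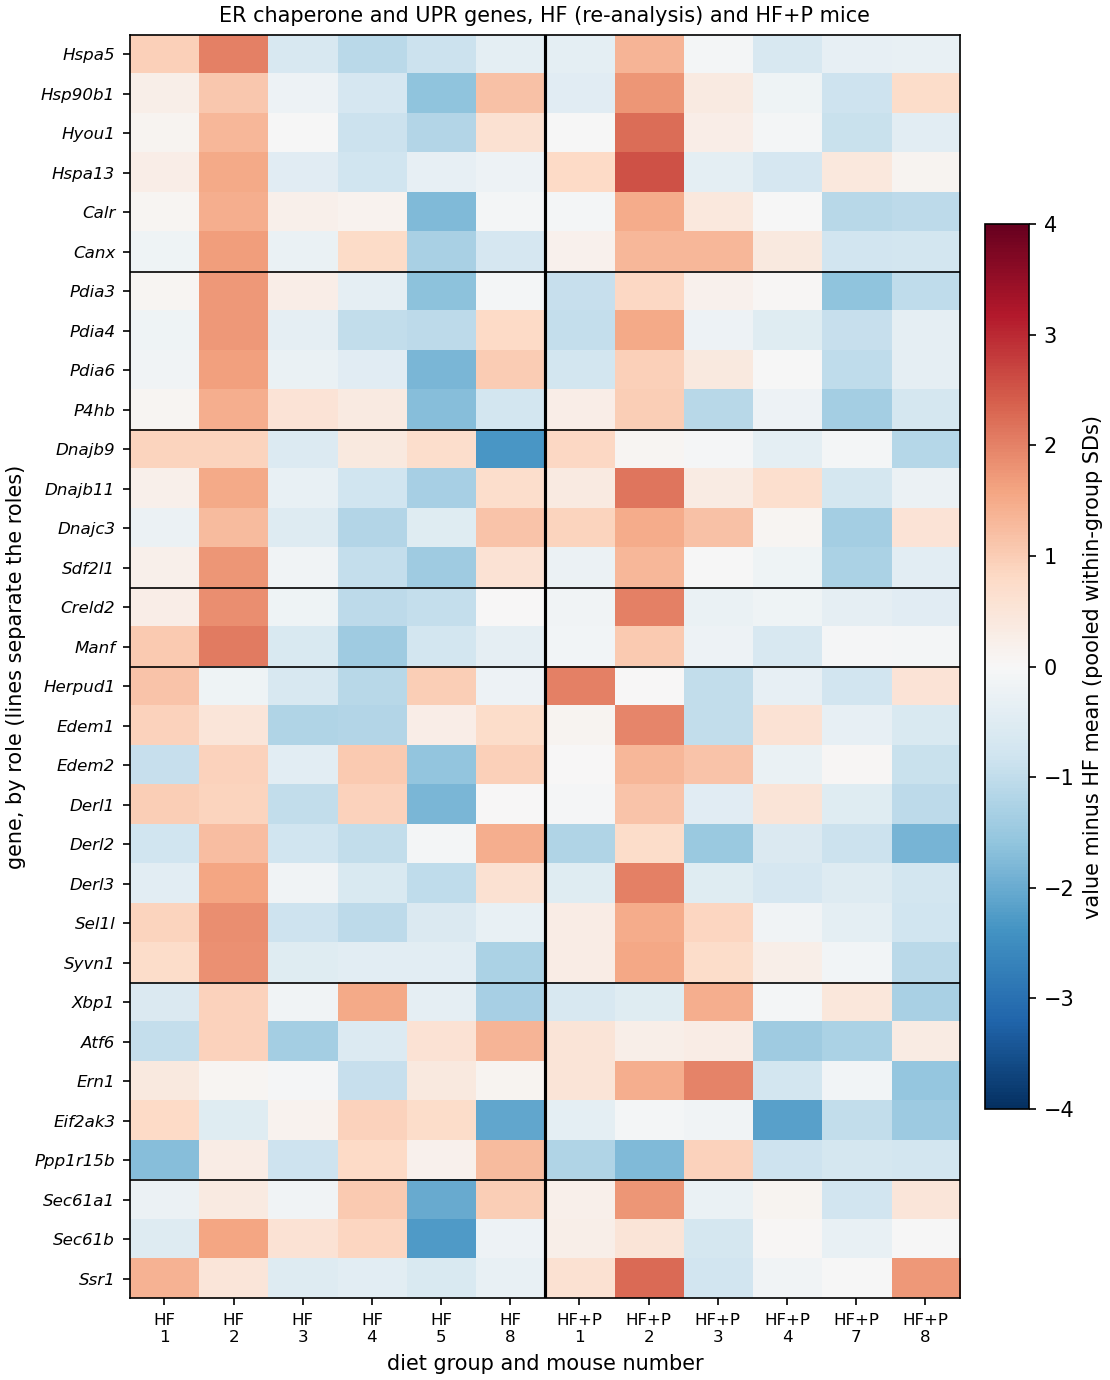
Position of each HF mouse (second processing) and HF+P mouse (columns) for the 32 genes (rows, by role), as the deposited value minus the HF mean in pooled within-group SDs, red above and blue below. The columns numbered 2 are the reddest of both groups, with median positions of 1.38 in HF and 1.34 in HF+P.

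HF+P mouse 2 had the highest value of its group for 26 of the 32 genes (56 of 83 probe sets), against 15.6% of all probe sets. It led for 20 of 32 after subtraction of column medians (5.64% of all probe sets). After quantile normalization it led for 10 of 22 (17.9%), as did mouse 1 (59%). HF mouse 2 led for 18 of 32 in this processing (14.4%). It led for 14 of 32 after subtraction of column medians (1.27%) and for 12 of 22 after quantile normalization (13.2%). HF mouse 2 and HF+P mouse 2 are separate animals that share a number. Among the 9 genes with an ERSE, HF+P mouse 2 was highest for all 9, against 12 of the 16 with a window and no ERSE and 5 of the 7 without a window. The count of genes with a higher mean in HF+P turned on these mice: 26 of 32 without HF mouse 2, 9 of 32 without HF+P mouse 2, and 19 of 32 without both, an alternative chosen after the values were seen. The median standardized difference was 0.24, -0.24 and 0.05 in these fits, and none of the 32 was called in any of them. Kupffer cell markers had a lower mean in HF+P for 7 of 7 genes in the deposited values (median -0.63) and after subtraction of column medians, and for 5 of 7 after quantile normalization, none of them called. Hepatocyte markers had a higher mean in HF+P for 4 of 6 (median 0.51) and for 6 of 6 after subtraction of column medians. Of all probe sets, 49.3% and 86.2% were higher in HF+P in these settings. Lymphocyte, plasma cell and B cell, and acinar markers were higher for 3 of 6, 3 of 9 and 3 of 8 (5 of 6, 7 of 9 and 5 of 8 after subtraction of column medians). Their part in these values was not tested.

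A further 86 measured genes of the same machinery, none of them among the 32, were read in the same fit. In HF, 49 of 86 had a higher mean than in LF in the deposited values (median 0.19), against 50.8% of all probe sets. After subtraction of column medians 3 of 86 did (2.87% of all probe sets), and after quantile normalization 12 of 75 (14.6%). The counts by list that follow are those of the deposited values. Of the 23 other folding enzymes 15 were higher (median 0.43), led by the isomerases Tmx3 (2.14) and Ppib (2.08, a cyclophilin), with Fkbp14 lowest at -1.63. Of 24 genes of translocation, signal peptidase and N-glycosylation 17 were higher (median 0.58), led by Stt3a (2.42, a catalytic subunit of oligosaccharyltransferase) and Spcs3 (2.37, of the signal peptidase), with limma adjusted p of 0.0668 and 0.0698; Rpn2 and Stt3b were lowest, at -1.97 and -1.13. Of 18 other degradation genes 7 were higher (median -0.26), and of 21 genes of the PERK, ATF6 and CREB3 branches 10 were (median -0.04), from Trib3 at -1.15 to Atf4 at 1.81.

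Across these 86 genes limma called 0 higher and 1 lower in HF, against 0.269% and 0.402% of all probe sets, and 14 were higher and 4 lower at an unadjusted p below 0.05, against 5.69% and 7.25%. The called gene was Erlin2, a membrane protein that recruits a ubiquitin ligase to ER clients and takes part in sterol-controlled degradation. It fell in HF, with a standardized difference of -3.25 (-4.97 to -1.47, limma adjusted p = 0.024) and every HF mouse below every LF mouse (0.921% of all probe sets). Among the settings that ended the call were quantile normalization (-1.18, adjusted p = 0.129) and leaving out LF mouse 8 (adjusted p = 0.0563) or HF mouse 4 (adjusted p = 0.0556), within 0.000495 to 0.129 over 19 other settings. Its relative Erlin1 had 1.48 (limma adjusted p = 0.24). In HF+P against HF, 53 of 86 had a higher mean (median 0.14), against 49.3% of all probe sets. After subtraction of column medians 72 of 86 did (86.2% of all probe sets), and after quantile normalization 45 of 68 (54.4%). In the deposited values 0 were called by limma, and 7 were higher and 0 lower at an unadjusted p below 0.05 (3.74% and 3.2% of all probe sets), led by Wfs1 (2.12) and Srpr (1.92).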

How the data were processed

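The values are those of the series' value table, which the authors deposited for 45101 probe sets and 24 columns, the 6 HF arrays standing in it with both other groups. The authors worked in R 2.7.2, per the submitters' processing notes; how probes were summarised, how arrays were normalized and the base of the logarithm are not given in the sources used. The deposited values were handled as log2 values, from their range. Their SD over arrays is minute for most probe sets, so differences are given in pooled SDs. Annotation lists several symbols for 932 probe sets and no gene for 9211.

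Array controls (64) were left out. With limma 3.58.1 under R 4.3.3, lmFit and eBayes were run on the 12 columns of each comparison, without covariates, over 45037 probe sets. Intervals use the noncentral t distribution. The exact permutation test takes all 924 assignments. Labels number mice but state no pairing; each label was treated as 1 mouse, and p-values measure the spread between these samples. The fit was tested on simulated data, with 50 changed probe sets per size of shift. For HF minus LF it recovered 6% of shifts of 2 SDs and 82% of shifts of 4 SDs. For HF+P minus HF these were 12% and 78%. A gene that was not called can therefore still differ by about 2 SDs. The genes, their roles and the other lists were chosen with earlier results of these data known. Mouse values are given for 19 genes: Hspa5, Hsp90b1, Calr, Xbp1, Atf6, Ern1 and Eif2ak3, any called gene, and per comparison the 4 highest and 4 lowest standardized differences; Creld2 and Manf were added after their values were seen. Other ER genes and markers are named where called, or as the 2 highest and 2 lowest of a list; the remaining genes named were chosen after their values were seen. Quantile normalization was fitted without probe sets of the same rank on every array, which took out 8 and 10 of the 32 genes. In counts of the highest and lowest mouse, ties went to the lowest mouse number. Shares of all probe sets in these counts kept the probe sets of the same rank. Other settings were scaling, 1 probe set per gene, dim probe sets left out, trend and robust fits, array weights, other probe sets, a replicate block and leaving out each mouse. Promoter windows are RefSeq's; 7 of the 32 genes are not in that table.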

Additional observations from a re-analysis of the deposited data

Results flagged for a closer look

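In 7 of 128 groups of 6 mice, 4 groups for each of the 32 genes, 1 mouse stood apart by Dixon's measure, the gap to the nearest mouse divided by the range of the group (above its critical value at 95%). Chance alone sets apart about 1 in 20 groups.

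In HF+P, mouse 2 was the high one for 5 genes: the gap was 0.914 of the range for Derl3, a derlin of the degradation channel, 0.875 for Creld2, 0.719 for Hspa5, 0.692 for Pdia4 and 0.641 for Manf. Of these 5, Derl3, Creld2 and Hspa5 carry an ERSE in the promoter window, Pdia4 has a window without one and Manf has no window. Among the 25 genes with a window, 9 carry an ERSE (36.0%). HF mouse 4 was the low one for Ern1, the IRE1 sensor, with a gap of 0.722 of the range in the processing with LF and of 0.65 in the processing with HF+P, which are the same 6 arrays.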

How the results depend on the processing

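For HF minus LF, 0 of the 32 genes were called in the deposited values. With column medians subtracted 16 were called, 4 higher (Pdia3, Hyou1, Creld2 and Manf) and 12 lower. In this setting 15 of 32 had a higher mean, the median standardized difference was -0.25 and 79 of the other 86 ER genes were called. Of all 45037 probe sets, 42369 were called and 2.87% had a higher mean. The lowest of the 32 were Eif2ak3 at -3.3, Derl1 at -2.98, Edem1 at -2.95 and P4hb at -2.79, each with a limma adjusted p of 0.000495. In that setting Hsp90b1 had -0.89, Canx -2.14, Edem2 -1.25, Sel1l -1.03, Atf6 -0.82, Ern1 -1.33, Derl2 -1.69, Sec61a1 -1.65, Ssr1 -2.63, Hspa13 -0.05, Dnajc3 -1.91 and Ppp1r15b -1.49, all opposite in sign to the deposited values. With quantile normalization 1 of 24 was called, 14 of 24 had a higher mean and 12 of 75 other ER genes were called. Over all probe sets 7305 were called in that setting and 14.6% had a higher mean. Calr had -0.84, Xbp1 -0.53, Atf6 -0.47, Ern1 -0.17, Eif2ak3 0.29, Derl2 -1.31, Edem1 0.17, Derl1 0.3, Hspa13 -1.72, Dnajb11 -1.5, Edem2 -0.64 and Ppp1r15b -0.53, opposite in sign too, and Pdia4 0. Subtraction moves all probe sets of an array by 1 amount, which lowers every HF minus LF difference by 6.45e-05. A smaller positive difference therefore turns negative by arithmetic, as for Derl2 (1.95e-05) and Hspa13 (6.14e-05). Quantile normalization moves each probe set by its rank, and the cause of each reversal there was not tested. Leaving out dim probe sets (fewer tests) gave 1 called gene, Derl2, and 3 of 82 other ER genes, with 568 probe sets called in all. With 1 probe set per gene 0 of the 32 and 3 of 86 other ER genes were called, with 332 called in all. A threshold of 0.1 gave 1 gene (Derl2) and 4 of 86 other ER genes, with 861 probe sets called in all. Without each mouse in turn, 0 of the 32 were called, 27 to 28 had a higher mean, the median ran from 0.74 to 1.16 and other ER genes called from 0 to 3. Other probe sets gave 0.45 for Eif2ak3, 0.4 for Edem1, -0.42 for Edem2, -0.11 for Pdia6, -0.31 and -0.69 for Sel1l, and -0.65 and -0.21 for Ssr1.

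For HF+P minus HF, 0 of the 32 were called in any setting run. Without each mouse in turn the count with a higher mean ran from 9 (without HF+P mouse 2) to 26 (without HF mouse 2) and the median from -0.24 to 0.24; by gene the values ran from -0.34 to 0.42 for Hspa5, -0.48 to 0.12 for Derl1, -0.46 to 0.23 for Calr, -0.43 to 0.2 for Xbp1, -0.7 to 0.29 for Sec61b, -0.29 to 0.32 for Edem1, -0.09 to 0.44 for Hsp90b1, -0.18 to 0.43 for Sec61a1, -0.48 to 0.06 for Atf6 and -0.08 to 0.7 for Ern1. Without both mice numbered 2, a setting chosen after the values were seen, Hspa5 had 0.09, Xbp1 0.14, Sec61b 0.17 and Edem1 -0.17. Sign changes with quantile normalization were Atf6 0.48, Eif2ak3 0.08, Sec61a1 -1.47, Dnajc3 -0.53 and Derl3 0.01 (Calr had 0), and with column medians subtracted Eif2ak3 0.14, Derl2 0.39, Sec61b 0.12, P4hb 0.53 and Derl1 0.62. Among the genes with mouse values, other probe sets gave 0.16 for Hspa5, -0.38 for Hsp90b1, 0.02 and 0.09 for Calr, -0.2 for Ern1, 0.04 for Eif2ak3, 0.13 for Derl2, -0.33 for Sec61a1, 0.13 for Pdia3, -0.41 for Edem1, 0.24 and 0.76 for Derl1, -1.06 for Ssr1, -0.11 and -0.32 for Hspa13 and -0.52 for Dnajc3.

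The labels state no pairing by mouse number, and the mice were treated as unpaired because not every same-numbered pair had a correlation of deviations over 0.1: it lay between -0.13 and 0.1 for LF and HF and between 0.03 and 0.21 for HF and HF+P. That 4 of 6 and 3 of 5 mice correlated best with their own number is a hint of pairing from the data, not the design. With the replicate block 0 of the 32 were called in either comparison, 246 probe sets were called for HF minus LF against 302 without it, the medians were 0.91 and -0.02, Erlin2 had -2.3 (limma adjusted p = 0.126), and Atf6 had 0.1 for HF+P minus HF. Trend and robust fits and array weights called 0 of the 32. The 6 arrays per group limit every value, and 16 and 10 of the 32 differences are smaller than the shift of the column medians.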
